A study of Caenorhabditis elegans with 16 samples.

Results

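The expression of 10 genes of the mitochondrial and endoplasmic reticulum (ER) unfolded protein responses was examined in C. elegans. The genes were taken by name from a list that was chosen with earlier results of these data known. All 10 were found among the 29351 genes of the normalized count table and the 19510 genes of the FPKM table. Of these, 4 genes belong to the mitochondrial response (hsp-6, hsp-60, dnj-10 and atfs-1) and 6 to the ER response (hsp-3, hsp-4, xbp-1, ire-1, pek-1 and atf-6). The study compared wild type N2 worms with worms that carry rnp-6(G281D), allele dh1127, on either of a pair of E. coli diets, OP50 and BW25113. RNP-6 is the worm ortholog of the human splicing factor PUF60, and the mutation reduces but does not remove its function. The groups were wild type on OP50, rnp-6(G281D) on OP50, wild type on BW25113 and rnp-6(G281D) on BW25113, with 4 samples each. All worms were synchronized by egg laying, kept at 20 °C on the stated bacteria and harvested after 3 days, on day 1 of adulthood, as whole animals. The mutant was represented by a single allele.

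An unfolded protein response raises the protein folding capacity of an organelle when misfolded proteins accumulate in it. In mitochondria, the transcription factor ATFS-1 is normally imported and degraded, and it moves to the nucleus when import falters, where it activates chaperone genes such as hsp-6. In the ER, the membrane proteins IRE-1, PEK-1 and ATF-6 sense misfolded proteins, and IRE-1 splices xbp-1 mRNA into a form that encodes an active transcription factor for chaperone genes such as hsp-4.

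The total of normalized counts per sample was between 36330390 and 38381707, and samples of the same group correlated across 10252 genes with r from 0.990 to 0.997. One gene, F31C3.14, chosen after its values were seen, took 2.03% and 2.33% of the total in the rnp-6(G281D) replicate 1 libraries on OP50 and BW25113, and between 0.168% and 0.694% in the other 14. The median log2FC of all 15799 genes tested was between -0.0033 and 0.0028 in every comparison. The mutated gene itself, rnp-6, had a higher RNA level in rnp-6(G281D) by a log2FC of 0.35 on OP50 (limma, adjusted p = 5.6e-06) and of 0.44 on BW25113 (adjusted p = 3.7e-06). A base substitution need not change the RNA level, so this does not check the labels.

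On the FPKM scale, which allows levels to be compared between genes, the HSP70 genes hsp-3, hsp-4 and hsp-6 were the most abundant of the 10. In wild type on OP50, hsp-3 and hsp-4 stood at 184 ± 4.68 and 184 ± 11.4 FPKM (mean ± SD, n = 4), which is no difference beyond their spread, and hsp-6 followed at 155 ± 5.33. The transcription factor gene xbp-1 came next at 111 ± 8.05, then hsp-60 at 82.9 ± 4.21 and dnj-10 at 34.5 ± 0.967. The sensor genes pek-1 and ire-1 and the regulator gene atfs-1 lay together at 14.8 ± 1.85, 13.4 ± 0.322 and 13.2 ± 0.578 FPKM, and their ranges overlapped. The third sensor gene, atf-6, was the lowest at 2.56 ± 0.278 FPKM. Over the 4 groups, the group means of ire-1 moved only between 13.4 and 14.3 FPKM, whereas those of xbp-1 ranged from 96.6 to 139 and those of hsp-4 from 184 to 244. All 10 genes passed the filter on low values in the normalized count table, and all values below are normalized counts unless FPKM is stated.

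The first comparison asked how the mutation changed these genes on OP50, the standard diet. The ER chaperone genes hsp-4 and hsp-3, the transcription factor genes xbp-1 and atfs-1, and less firmly hsp-6 and ire-1, rose in rnp-6(G281D), while the mitochondrial chaperonin gene hsp-60 fell. The largest change was that of hsp-4, at 32.7% above the wild type mean, and none passed an absolute log2FC of 0.5. Therefore 0 of the 10 genes met both thresholds (limma, Benjamini-Hochberg adjusted p under 0.05 and absolute log2FC over 0.5), against 11.5% of all genes tested. At adjusted p alone, 7 of the 10 passed, 6 higher and 1 lower, against 29.2% of all genes, of which 14.3% were higher and 14.9% lower. The 10 genes had means of 372 to 26648 over all samples, and the share was larger among more abundant genes. With a filter at a mean of 100, 1856 of 10252 genes were higher and 1966 lower. The groups did not overlap for 6 of the 10 genes, against 30.7% of all genes.

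The genes hsp-3 and hsp-4 both encode BiP, the HSP70 chaperone of the ER lumen. They lie on chromosome X at 6089028 to 6092124 and on chromosome II at 7350112 to 7352645 (WBcel235). Their sequences are similar, and how shared reads were divided between them is uncertain, so a part of either gene's value may belong to the other. For hsp-4 (WBGene00002008), the normalized counts in wild type on OP50 were 16747, 19086, 19536 and 18571, and in rnp-6(G281D) on OP50 they were 23758, 23691, 25390.0 and 25298. Every mutant sample was above every wild type sample, by a wide gap. The log2FC was 0.41 ± 0.046 (SE; limma, adjusted p = 8.5e-05; exact permutation p = 0.0286, the smallest that 4 against 4 samples allow). The authors, who used hsp-4 as a marker of ER stress, reported no induction of it in this mutant. Their measure was not compared with these counts. For hsp-3 (WBGene00002007), the counts were 25246, 25118, 25003 and 24888 in wild type and 29061, 28939, 28548 and 29929.5 in the mutant. The wild type samples lay within a very narrow range, and all mutant samples were higher. The log2FC of hsp-3 was 0.22 ± 0.020 (adjusted p = 2.6e-05; exact permutation p = 0.0286).

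The gene xbp-1 (WBGene00006959, chromosome III, 4193809 to 4195358) encodes the bZIP transcription factor downstream of IRE-1. Its counts in wild type on OP50 were 7150.5, 7625, 8508 and 7656, and in rnp-6(G281D) on OP50 they were 8937, 8847, 10785 and 10096. All mutant samples were again above all wild type samples, with replicate 3 the highest in both groups. The log2FC was 0.32 ± 0.068 (adjusted p = 0.0050; exact permutation p = 0.0286). The tables give a single value per gene, so the spliced and unspliced forms of xbp-1 mRNA, the usual readout of IRE-1 activity, cannot be told apart here.

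The ER sensor genes moved little on OP50. The counts of ire-1 (WBGene00002147), which encodes the kinase and endoribonuclease, were 5868, 5943, 6113 and 6129 in wild type and 6218, 6345, 6586 and 6364 in the mutant. The groups did not overlap, but the gap was small, with a log2FC of 0.08 ± 0.026 (adjusted p = 0.031). This call was lost without the filter (adjusted p = 0.053), with equal totals (0.051), in the FPKM table (0.067), and without wild type replicate 1 or 2 or mutant replicate 2, 3 or 4 (0.053 to 0.087). The gene ire-1 overlaps unc-105 on the opposite strand, and the libraries were stranded. The counts of pek-1 (WBGene00003970), the gene of the PERK kinase, lay between 2228 and 3007 in wild type and between 2496 and 2800.5 in rnp-6(G281D), and the groups overlapped (log2FC 0.07 ± 0.079, adjusted p = 0.58). Those of atf-6 (WBGene00000222), which encodes a membrane-tethered transcription factor, ranged from 328 to 385 and from 334 to 373, with a log2FC of -0.02 ± 0.073 (adjusted p = 0.89).

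**Figure D1:**
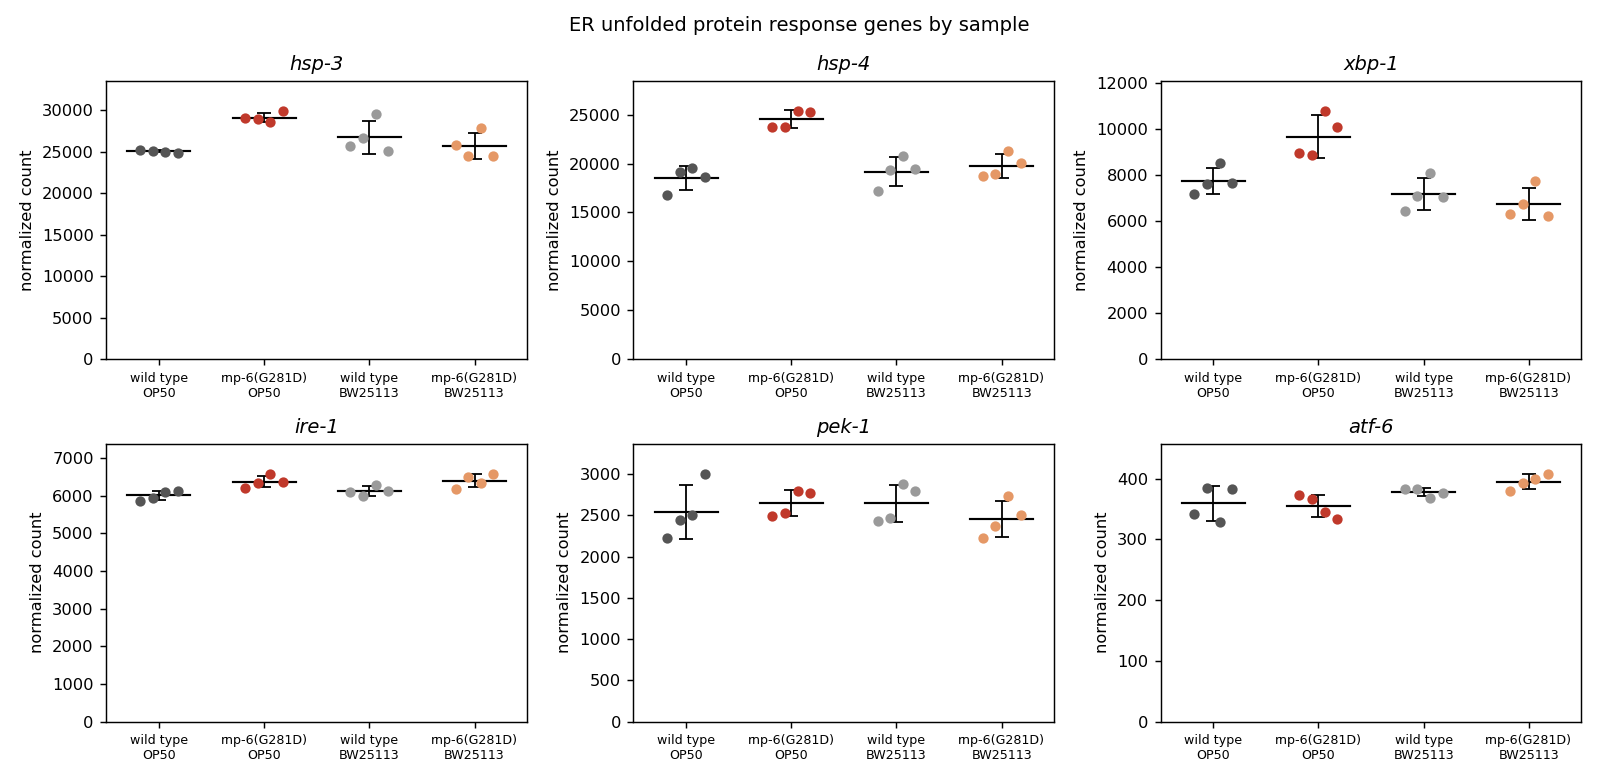
Normalized counts (y axis) of the 6 ER genes in each sample, by group (x axis). Points are samples, the long bar is the mean and the whiskers are 1 SD (n = 4). For hsp-4, hsp-3 and xbp-1 the rnp-6(G281D) samples on OP50 lie above all wild type samples on OP50 and above all rnp-6(G281D) samples on BW25113.

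Among the mitochondrial genes on OP50, the chaperone genes moved in opposite directions. The gene hsp-60 (WBGene00002025, chromosome III, 1619742 to 1625803) encodes the mitochondrial chaperonin. Its counts were 20164, 18882, 18455 and 18722 in wild type and 17519.7, 16337, 15543 and 16478 in rnp-6(G281D). Every mutant sample was below every wild type sample, and the log2FC was -0.21 ± 0.038 (adjusted p = 0.0020; exact permutation p = 0.0286). The gene hsp-6 (WBGene00002010, chromosome V, 4824124 to 4826760) encodes the mitochondrial HSP70, which drives import and folding in the matrix. Its counts were 18057, 17797, 17011 and 18028 in wild type and 19859, 18917, 18044 and 19292 in the mutant. The groups overlapped by a hair, since the lowest mutant sample lay just under the highest wild type sample. The log2FC was 0.10 ± 0.032 (adjusted p = 0.033; exact permutation p = 0.057). The call was lost without the filter (adjusted p = 0.11), in the FPKM table (0.073), and without wild type replicate 2 or 3 or mutant replicate 1, 2 or 4 (0.057 to 0.092). The authors reported strong induction of an hsp-6 reporter in this mutant, and its suppression by BW25113. A reporter is a different measure from these RNA levels.

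The gene atfs-1 (WBGene00013878, chromosome V, 14193663 to 14197700) encodes the transcription factor of the mitochondrial response. Its counts were 1728, 1796, 1909 and 1791 in wild type on OP50 and 2061, 2042, 2166 and 2174 in rnp-6(G281D) on OP50. The groups did not overlap, and atfs-1 was higher in the mutant by a log2FC of 0.23 ± 0.038 (adjusted p = 0.0014; exact permutation p = 0.0286). The authors list atfs-1 among the genes whose splicing is altered in rnp-6(G281D). A single value per gene does not separate its splice forms, so the level of functional mRNA is not known here. For dnj-10 (WBGene00001028), the gene of a mitochondrial DnaJ co-chaperone, the counts ranged from 2611 to 2768 and from 2624 to 2873, and the groups overlapped (log2FC 0.06 ± 0.036, adjusted p = 0.25).

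**Figure D2:**
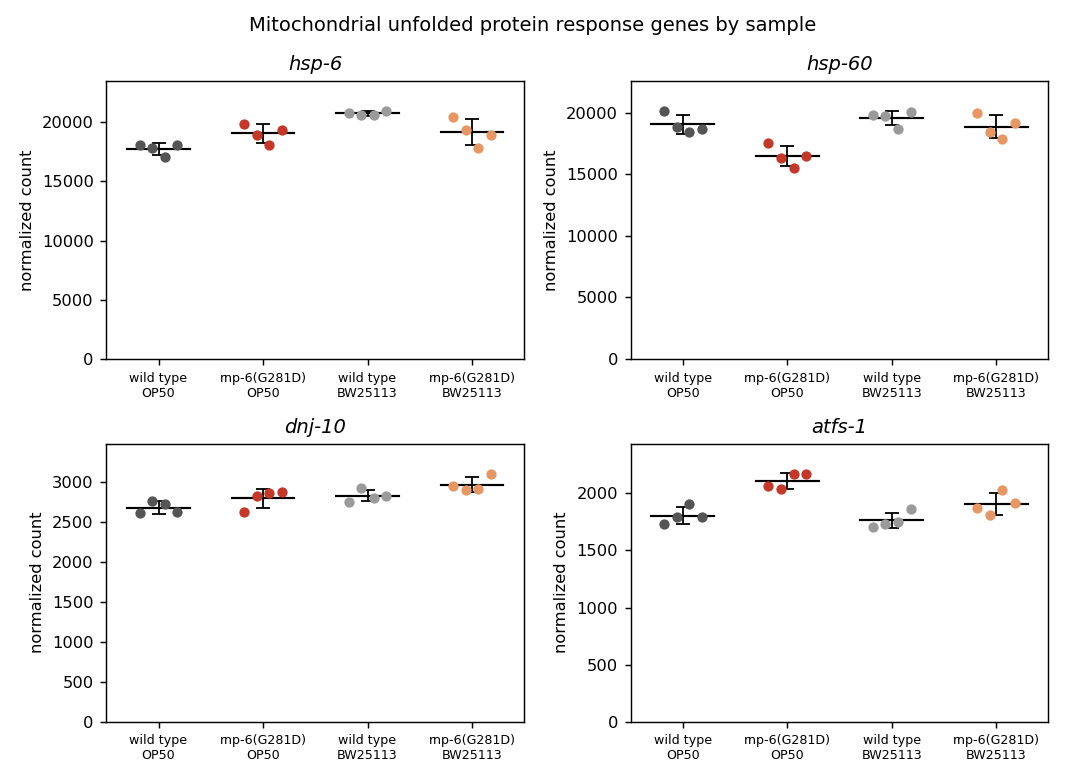
Normalized counts (y axis) of the 4 mitochondrial genes in each sample, by group (x axis). Points are samples, the long bar is the mean and the whiskers are 1 SD (n = 4). For hsp-60, the rnp-6(G281D) samples on OP50 are the lowest of the 16, and for hsp-6 the wild type samples on BW25113 are all above the other groups.

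The samples are whole animals, so a change in the number of cells of a type and a change in RNA per cell cannot be told apart. All 3 intestinal markers (elt-2, ges-1 and act-5) passed adjusted p alone as higher in rnp-6(G281D) on OP50, and their summed normalized counts rose from between 19780.7 and 21312 in wild type to between 22031 and 23626. Of the 3 germline markers, glh-1 and pgl-1 were lower and gld-1 was higher, and their sum was 47287 to 49228 in wild type and 39946 to 40896 in the mutant. The 3 neuronal markers summed to between 2524 and 2653 in wild type and between 2748 and 2891 in the mutant, with 1 of 3 higher at adjusted p alone. The same held for 1 of 3 muscle markers, unc-15 (log2FC 0.25), and 1 of 3 oocyte markers, puf-5 (0.12), and for 0 of 3 sperm markers. Of the hypodermal markers 2 of 3 were tested, and dpy-7, a cuticle collagen gene of low level, was higher past both thresholds (log2FC 1.52 ± 0.49, adjusted p = 0.040). The other one tested, col-19, had a log2FC of 0.02. All markers were found, none was at 0, and their part in the changes of the unfolded protein response genes was not tested.

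The same question on the second diet, BW25113, gave smaller differences. None of the 10 genes met both thresholds, against 5.68% of all genes, and 0 passed adjusted p alone in limma, against 14.6%, of which 6.57% were higher and 8.03% lower. At an unadjusted p under 0.05 there were 2, hsp-6 and atfs-1, which ranked 2529 and 3698 by p among the 15799 genes. The largest absolute log2FC was that of hsp-6. Its counts were 20772, 20569, 20583 and 20942 in wild type on BW25113 and 20436, 19364, 17813 and 18874 in rnp-6(G281D) on BW25113. All mutant samples were below all wild type samples, and they were more spread out. The log2FC was -0.12 ± 0.038, and it missed the threshold (limma, adjusted p = 0.060; exact permutation p = 0.0286). With the replicate number as a block, 2 genes passed, both lower in the mutant: hsp-6 (adjusted p = 0.025) and pek-1 (log2FC -0.11, adjusted p = 0.042). Over all 15799 genes, the block also raised those passing, from 1038 higher and 1268 lower to 1488 and 1774. Without rnp-6(G281D) BW25113 replicate 1, hsp-6 also passed, with a log2FC of -0.15 (adjusted p = 0.013). None of the 3 intestinal markers passed here. Of the germline markers only glh-1 passed, as lower in the mutant, and the others had log2FC values of -0.11 and 0.13. The hypodermal marker dpy-7 was higher (log2FC 2.09, adjusted p = 0.024), and the other one tested, col-19, had 0.01. The neuronal marker snb-1 was higher (0.13, adjusted p = 0.034), and the other neuronal markers had -0.02 and -0.0027. The part of the markers was not tested. Non-overlap of the groups, seen for hsp-6 alone among the 10, was seen for 20.3% of all genes.

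The genes that changed on OP50 had these values on BW25113. For hsp-4 the counts were 17196, 19299.7, 20804 and 19421 in wild type and 18674, 18975, 21288 and 20096 in the mutant. The groups were interleaved, with a log2FC of 0.04 ± 0.057 (adjusted p = 0.65). For hsp-3 they were 25729.5, 26642, 29556 and 25091 in wild type and 25853, 24499.8, 27829.6 and 24432 in the mutant, and here too the groups overlapped (log2FC -0.06 ± 0.055, adjusted p = 0.50). In both genotypes, replicate 3 was the highest sample of hsp-3 on this diet. For xbp-1 the counts were 6438, 7083, 8100.1 and 7061 in wild type and 6295, 6726, 7738 and 6194 in the mutant (log2FC -0.09 ± 0.077, adjusted p = 0.47). Each mutant sample of xbp-1 was below the wild type sample of the same number. For hsp-60 the counts were 19826, 19762, 18703 and 20029 in wild type and 20023, 18448, 17892 and 19145 in the mutant, and the groups overlapped (log2FC -0.05 ± 0.038, adjusted p = 0.37). For atfs-1 they were 1704, 1732, 1753 and 1861 in wild type and 1875, 1807, 2029 and 1916 in the mutant. Here 1 wild type sample lay above 1 mutant sample, and the log2FC of atfs-1 was 0.11 ± 0.044 (adjusted p = 0.11). The remaining genes, dnj-10, ire-1, pek-1 and atf-6, had log2FC values between -0.11 and 0.07, with adjusted p from 0.18 to 0.50.

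Between the diets in wild type, 1 of the 10 genes passed adjusted p alone, as higher, against 6.61% of all genes, of which 2.7% were higher. None passed both thresholds, against 3.33%. With a filter at a mean of 100, 387 of 10252 genes were higher and 417 lower at adjusted p alone. At an unadjusted p under 0.05 there were 2 of the 10, hsp-6 and dnj-10, and dnj-10 ranked 2626 by p among all genes tested. The gene that passed was hsp-6, which was higher on BW25113 than on OP50 in all wild type samples (group means 20716 ± 176 and 17723 ± 489 normalized counts, SD, n = 4). The 4 samples on BW25113 spanned only 20569 to 20942. The log2FC was 0.23 ± 0.023 (limma, adjusted p = 2.5e-04; exact permutation p = 0.0286), and hsp-6 ranked 61 by p among the 15799 genes. The groups did not overlap for hsp-6 alone among the 10, against 13.4% of all genes. The other mitochondrial genes did not pass, with log2FC values of 0.04 for hsp-60, 0.08 for dnj-10 and -0.03 for atfs-1. The ER genes had log2FC values between -0.11 and 0.09, the lowest being that of xbp-1 (adjusted p = 0.38). With the replicate number as a block, xbp-1 passed as lower on BW25113 (adjusted p = 0.012), and it was lower in 4 of 4 same-numbered pairs. Over all genes, the block also raised those passing, from 426 higher and 618 lower to 747 and 941. In wild type on BW25113, the intestinal marker act-5 (log2FC -0.14) and the muscle marker myo-3 (-0.22) were lower at adjusted p alone. So were the neuronal marker snb-1 (-0.11) and 2 of 3 sperm markers, beside 618 of all 15799 genes. The other markers of these types did not pass. Their values were -0.03 and 0.05 for intestine, -0.07 and 0.02 for muscle, and 0.01 and 0.18 for neurons. The part of the markers was not tested here.

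The diet comparison in rnp-6(G281D) asked how BW25113 changed the mutant's expression. It uses the same mutant samples on OP50 as the first comparison, so the values of both rest partly on the same libraries. Here xbp-1, hsp-4, hsp-3 and atfs-1 fell on BW25113 and hsp-60 rose. Only xbp-1 met both thresholds, 1 of 10 genes, against 9.36% of all genes, of which 7.22% were lower. At adjusted p alone 5 of the 10 passed, 1 higher and 4 lower, against 18.1% of all genes, with 6.81% higher and 11.3% lower. With a filter at a mean of 100, 1057 of 10252 genes were higher and 1238 lower. The groups did not overlap for 7 of the 10, against 23.1%. The split over all genes moved with the scaling: 1076 were higher and 1781 lower at adjusted p alone, but 1334 and 1459 with quantile normalization and 689 and 1876 with equal totals. The direction of the 5 genes was the same in each.

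The mutant mean of xbp-1 was 9666 ± 938 on OP50 and 6738 ± 705 on BW25113 (SD, n = 4), and the highest sample on BW25113, at 7738, was below the lowest on OP50, at 8847. The log2FC was -0.52 ± 0.078 (limma, adjusted p = 0.0012; exact permutation p = 0.0286). The adjusted p of xbp-1 stayed under 0.05 in every alternative run, up to 0.027 without the filter, but the size is at the threshold. It dropped below an absolute log2FC of 0.5 without rnp-6(G281D) OP50 replicate 3 (-0.47) or 4 (-0.50), and without rnp-6(G281D) BW25113 replicate 1 (-0.49) or 4 (-0.48).

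For hsp-4 the mutant mean was 24534 ± 936 on OP50 and 19758 ± 1189 on BW25113, and the log2FC was -0.31 ± 0.044 (adjusted p = 7.4e-04). For hsp-3 the means were 29119 ± 583 and 25654 ± 1591, with a log2FC of -0.18 ± 0.041 (adjusted p = 0.011). The samples of each gene separated fully by diet. The atfs-1 mean was 2111 ± 69.0 on OP50 and 1907 ± 93.1 on BW25113, and the log2FC was -0.15 ± 0.042 (adjusted p = 0.036). This was the least firm call, since it passed when mutant OP50 replicate 2 or mutant BW25113 replicate 3 was left out and failed without any other single sample (adjusted p from 0.054 to 0.097). In the opposite direction, hsp-60 was higher on BW25113, with means of 16469 ± 812 and 18877 ± 920.0 and a log2FC of 0.20 ± 0.043 (adjusted p = 0.010).

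The other members did not pass. The diets did not overlap for dnj-10 (log2FC 0.09, adjusted p = 0.14) and atf-6 (0.16, adjusted p = 0.11), both with higher values on BW25113. With quantile normalization atf-6 passed (0.26, adjusted p = 0.025). The log2FC values near 0 were those of hsp-6 and ire-1, 0.0062 and 0.0059, and that of pek-1 was -0.11 (adjusted p = 0.25). Without the filter on low values, which raises the number of genes tested to 29351, 2 of the 10 passed in place of 5, hsp-4 and xbp-1. The intestinal markers moved with this diet comparison as well: ges-1 and act-5 were lower on BW25113 in the mutant, and the sum of the 3 markers was 17769 to 19174 there. The 3 sperm markers also moved, with 2 of 3 lower on BW25113 in both genotypes. In the mutant their sum was 1445 to 2622 on OP50 and 703 to 1197 on BW25113. The hypodermal marker dpy-7 was higher on BW25113 in the mutant (log2FC 1.57, adjusted p = 0.027), and so was the germline marker glh-1 (0.19, adjusted p = 0.022). The other tested hypodermal marker, col-19, had a log2FC of 0.0072, and the other germline markers had -0.00082 and -0.013. The part of these markers in the result was not tested.

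**Figure D3:**
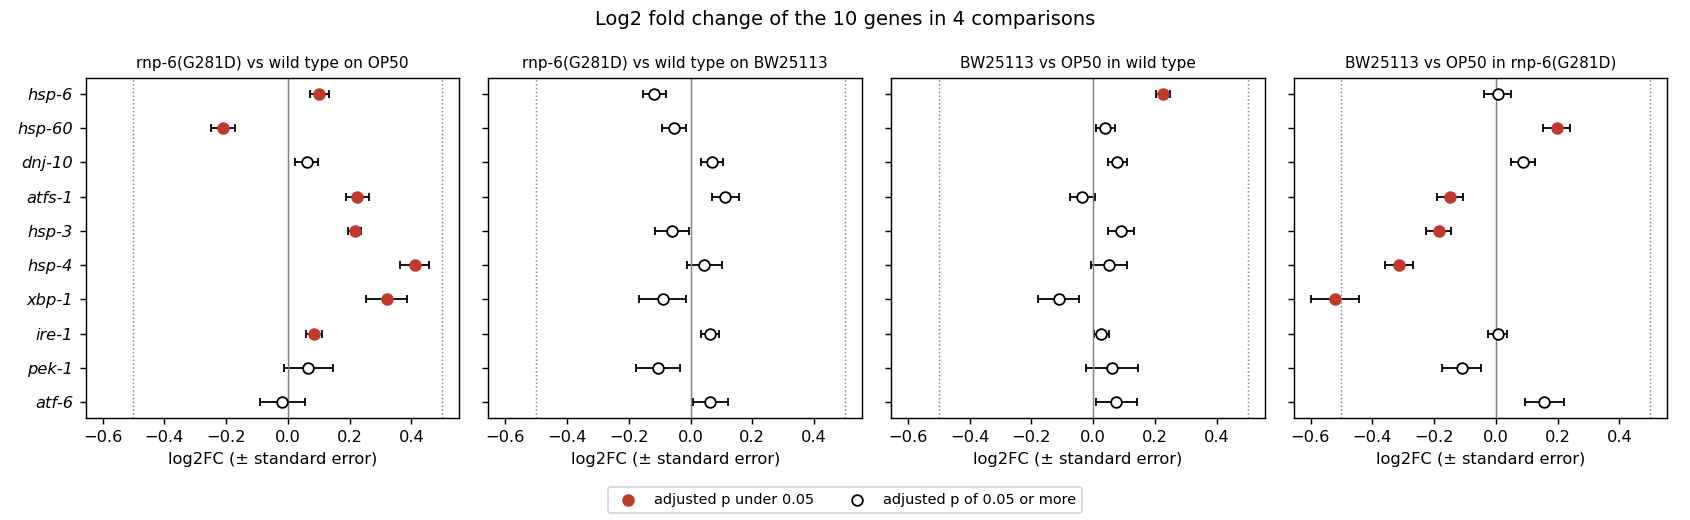
Log2 fold change with its standard error (x axis) of the 10 genes (y axis) in the 4 comparisons, with 8 samples in each. Filled points have an adjusted p under 0.05 (limma), open points do not, and dotted lines mark absolute values of 0.5. Filled points are most frequent in the first panel, 7 of 10, and absent from the second.

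Whether the effect of diet differed between the genotypes was tested as an interaction over all 16 samples. A negative value means that the diet effect, BW25113 against OP50, was lower in the mutant than in wild type. At adjusted p alone, 4 of the 10 genes passed, all negative, against 4.66% of all genes, of which 3.33% were negative. With a filter at a mean of 100, 280 of 10252 genes were positive and 483 negative. None of the 10 met both thresholds in limma, against 2.42%, and 5 had an unadjusted p under 0.05. Of these, hsp-60 had the largest p, at rank 1446 among the 15799 genes. The values were -0.37 ± 0.080 for hsp-4 (adjusted p = 0.011), -0.28 ± 0.063 for hsp-3 (adjusted p = 0.014), -0.22 ± 0.051 for hsp-6 (adjusted p = 0.017) and -0.41 ± 0.11 for xbp-1 (adjusted p = 0.049). The same sign covered different patterns. For hsp-4, hsp-3 and xbp-1 the mutant on OP50 was the highest of the 4 groups, whereas for hsp-6 the wild type on BW25113 was the highest. The interaction of hsp-60 was positive, 0.16 ± 0.056, and did not pass (adjusted p = 0.14). It passed with the replicate number as a block (adjusted p = 0.0053) and with quantile normalization (adjusted p = 0.045). Over all genes, 211 positive and 526 negative at adjusted p alone became 374 and 730 with the block. With quantile normalization they became 290 and 497. The gene atfs-1 did not pass (-0.11 ± 0.058, adjusted p = 0.34). Without the filter none of the 10 passed, with adjusted p of 0.051 for hsp-4, 0.054 for hsp-6, 0.056 for hsp-3 and 0.15 for xbp-1. The xbp-1 call also failed with a pseudocount of 0.1 (adjusted p = 0.0501), quantile normalization (0.051), equal totals (0.071) and the FPKM table (0.073), without both rnp-6(G281D) libraries numbered 1 (0.076), and in 11 of the 16 fits that left out a sample (adjusted p up to 0.10). It passed without wild type OP50 replicate 3, mutant OP50 replicate 1 or 2, wild type BW25113 replicate 1 or mutant BW25113 replicate 3.

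The pair of chaperone genes of each organelle was also followed as a ratio of normalized counts within a sample, which describes unequal movement and not their relative abundance. The ratio of hsp-6 to hsp-60 was 0.895, 0.943, 0.922 and 0.963 in wild type on OP50 and 1.13, 1.16, 1.16 and 1.17 in rnp-6(G281D) on OP50. It was 1.05, 1.04, 1.10 and 1.05 in wild type on BW25113 and 1.02, 1.05, 0.996 and 0.986 in the mutant on BW25113. The groups on OP50 were thus far apart, with the groups on BW25113 between them. The spread within a group (SD 0.0158 to 0.0289) was small beside the distance between the means on OP50, 0.931 and 1.16. The ratio of hsp-4 to hsp-3 averaged 0.738 ± 0.0516 in wild type and 0.843 ± 0.0337 in the mutant on OP50, and 0.718 ± 0.0442 and 0.771 ± 0.0411 on BW25113 (SD, n = 4). On OP50 the lowest mutant sample, 0.818, was above the highest wild type sample, 0.781, and on BW25113 the genotypes overlapped.

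**Figure D4:**
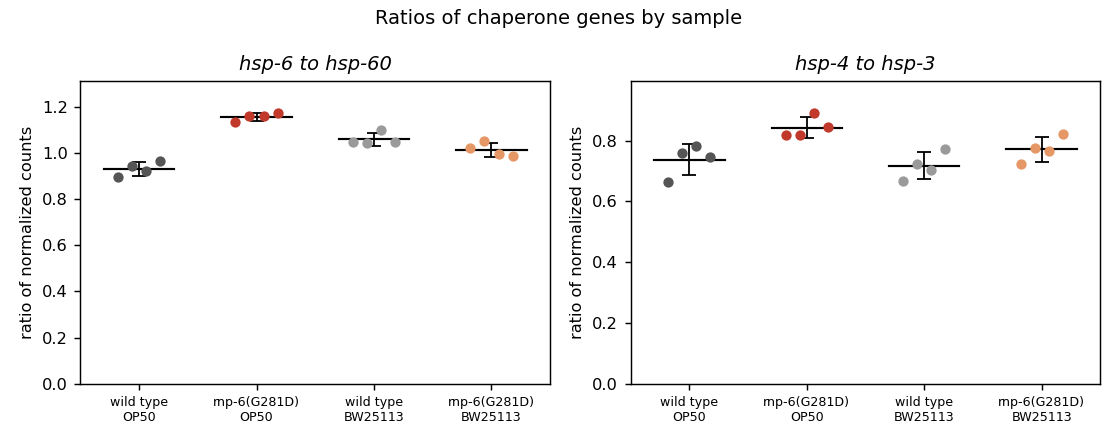
Ratio of the normalized counts of hsp-6 to hsp-60 and of hsp-4 to hsp-3 (y axis) in each sample, by group (x axis). Points are samples, the long bar is the mean and the whiskers are 1 SD (n = 4). The hsp-6 to hsp-60 ratio is between 1.13 and 1.17 in rnp-6(G281D) on OP50 and between 0.895 and 0.963 in wild type on OP50.

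The wider folding machinery of the ER was examined as a list of 22 chaperone and folding enzyme genes, all of them tested. In rnp-6(G281D) on OP50, 12 rose and 3 fell at adjusted p alone, with a median log2FC of 0.08, beside 0.0011 over all genes tested, of which 14.3% were higher and 14.9% lower. The gene C14B9.2, of a protein disulfide isomerase, rose past both thresholds (log2FC 0.56 ± 0.034, adjusted p = 1.3e-06), from 1817 ± 47.3 to 2684 ± 93.7 normalized counts (SD, n = 4). The gene fkb-3, of an FK506-binding prolyl isomerase, fell past both (log2FC -0.75 ± 0.057, adjusted p = 5.5e-06), from 807 ± 43.5 to 478 ± 24.6. Other members, chosen after their values were seen, were enpl-1, the gene of the ER HSP90 (0.36 ± 0.026), T14G8.3, of an HSP70-like ER chaperone (0.33 ± 0.0495), crt-1, of calreticulin (0.24 ± 0.025), and the DnaJ gene dnj-20 (0.37 ± 0.062). All 4 rose, with adjusted p between 4.5e-06 (enpl-1) and 0.0012 (dnj-20). The calnexin gene cnx-1, which shares the glycoprotein folding cycle with calreticulin, had a log2FC of -0.02 ± 0.024 (adjusted p = 0.61).

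On BW25113, 1 of the 22 ER genes was higher and 3 lower in the mutant (median log2FC -0.02), beside 6.57% and 8.03% of all genes. In wild type, none passed between the diets in limma (median 0.04), beside 6.61% of all genes. An unadjusted p under 0.05 was reached by 4 of the 22. From the ranks of dnj-10 and hsp-3 by p, between 2626 and 3387 of all 15799 genes reached it. In the mutant, 8 were lower and 3 higher on BW25113 than on OP50 (median -0.05), beside 11.3% and 6.81% of all genes, and 4 were lower without the filter. The 8 were enpl-1 (-0.30), crt-1 (-0.24), pdi-6 (-0.32), T14G8.3 (-0.24), dnj-7 (-0.22), dnj-20 (-0.27), ero-1 (-0.15) and C14B9.2 (-0.21). The 3 higher genes were fkb-3 (0.31), fkb-5 (0.27) and cnx-1 (0.09). Apart from C14B9.2 and fkb-3, these were chosen after their values were seen, cnx-1 above included. In the interaction, 6 of the 22 were negative and 1 positive at adjusted p alone, beside 3.33% and 1.34% of all genes. The smallest adjusted p among them was that of enpl-1, with a value of -0.34 ± 0.040 (adjusted p = 4.7e-05).

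ER-associated degradation, which returns misfolded proteins to the cytosol for the proteasome, was covered by 13 tested genes of 16 listed. On OP50, 1 was higher in the mutant, the ubiquitin ligase gene sel-11 (0.21 ± 0.043, adjusted p = 0.0042; chosen after its values were seen), and none was lower. Over all genes, 14.3% were higher and 14.9% lower. The median was 0.00037. No gene of this list passed in any of the other comparisons in limma, beside 4.66% to 18.1% of all genes. At an unadjusted p under 0.05 there were 0 to 2, and the shares of all genes are no smaller at that cut-off.

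The integrated stress response, in which PEK-1 and GCN-2 phosphorylate the translation initiation factor eIF2α, was covered by 9 tested genes of 11 listed. On OP50, 5 were lower and 1 higher in the mutant at adjusted p alone, beside 14.9% and 14.3% of all genes, with a median log2FC of -0.15. The asparagine synthetase gene asns-2 fell past both thresholds (-0.84 ± 0.17, adjusted p = 0.00375), from 1568 ± 385 to 864 ± 155 normalized counts. The kinase gene gcn-2 (-0.20 ± 0.025) and abcf-3 (-0.29 ± 0.021) also fell, while the cystathionine gamma-lyase gene cth-1 rose (0.33 ± 0.068, adjusted p = 0.0042). The gene atf-4, of the transcription factor of this response, did not pass (-0.14 ± 0.063, adjusted p = 0.14). The authors reported eIF2α phosphorylation and raised ATF-4 in this mutant when fed OP50, and read them as activation of the response. RNA levels do not measure phosphorylation or protein, so these values do not show whether the response was active. The authors' measures were not compared with these counts. Apart from asns-2, the genes named from this list were chosen after their values were seen. On BW25113, 2 were lower and 1 higher in the mutant, beside 8.03% and 6.57% of all genes. Of 15 abu genes, which encode secreted proteins described as activated when the ER response is blocked, 14 were found and 2 were abundant enough to be tested. One of them, abu-11, was higher in the mutant on OP50 (1.05 ± 0.32, adjusted p = 0.031), at 15.3 ± 2.09 against 7.27 ± 2.86 normalized counts.

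The mitochondrial side was covered by 19 genes of chaperones, import and proteases. On OP50, 2 were higher and 5 lower in the mutant, beside 14.3% and 14.9% of all genes, with a median log2FC of -0.02 and no value beyond -0.18 or 0.18. The lowest was that of ppgn-1, a gene of a mitochondrial AAA protease (-0.18 ± 0.025, adjusted p = 3.8e-04), and it was also lower on BW25113 (-0.18 ± 0.031, adjusted p = 0.0036). The gene with the highest value on OP50 was Y22D7AL.10, of the mitochondrial co-chaperonin that works with HSP-60, which rose by 0.18 ± 0.028 (adjusted p = 7.1e-04) while hsp-60 fell. In wild type, Y22D7AL.10 and the prohibitin gene phb-2 were higher on BW25113 (0.20 ± 0.028 and 0.16 ± 0.033, adjusted p = 0.0025 and 0.018). In the mutant, 3 of the 19 were higher on BW25113 and none lower, beside 6.81% and 11.3% of all genes, and the 2 import genes tin-44 and tomm-22 were among them (0.17 and 0.13). These 5 genes were chosen after their values were seen. Of 9 further regulators of the mitochondrial response, none passed between the genotypes on OP50 in limma, beside 29.2% of all genes. Their log2FC values were from -0.16 to 0.16, with 1 at an unadjusted p under 0.05. The share of all genes is no smaller at that cut-off. Between the genotypes on BW25113 and between the diets in the mutant, 1 each passed as higher, beside 6.57% and 6.81% of all genes.

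Cytosolic chaperone genes, together with hsf-1, the gene of the heat shock transcription factor, were listed for comparison with both organelles. Of 18 genes, 2 were higher and 8 lower in rnp-6(G281D) on OP50 (median log2FC -0.09), beside 14.3% and 14.9% of all genes. The 2 were hsf-1 itself (0.15 ± 0.034, adjusted p = 0.0070) and the cytosolic HSP70 gene hsp-1 (0.08). Between the diets in the mutant, 8 were higher on BW25113 and none lower (median 0.10), beside 6.81% and 11.3% of all genes. The hsp-90 gene, for example, had log2FC values of -0.08 ± 0.023 and 0.17 ± 0.028 (adjusted p = 0.024 and 0.0028), and cct-3, of a cytosolic chaperonin subunit, of -0.18 ± 0.023 and 0.15 ± 0.029 (adjusted p = 2.9e-04 and 0.0062). All 4 were chosen after their values were seen. These counts were sensitive to the processing: 3 were lower on OP50 without the filter, and 5 with quantile normalization. On BW25113 in the mutant 5 were higher with equal totals, 5 without rnp-6(G281D) OP50 replicate 3 or BW25113 replicate 2 or 4, and 4 without both rnp-6(G281D) libraries numbered 1.

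**Figure D5:**
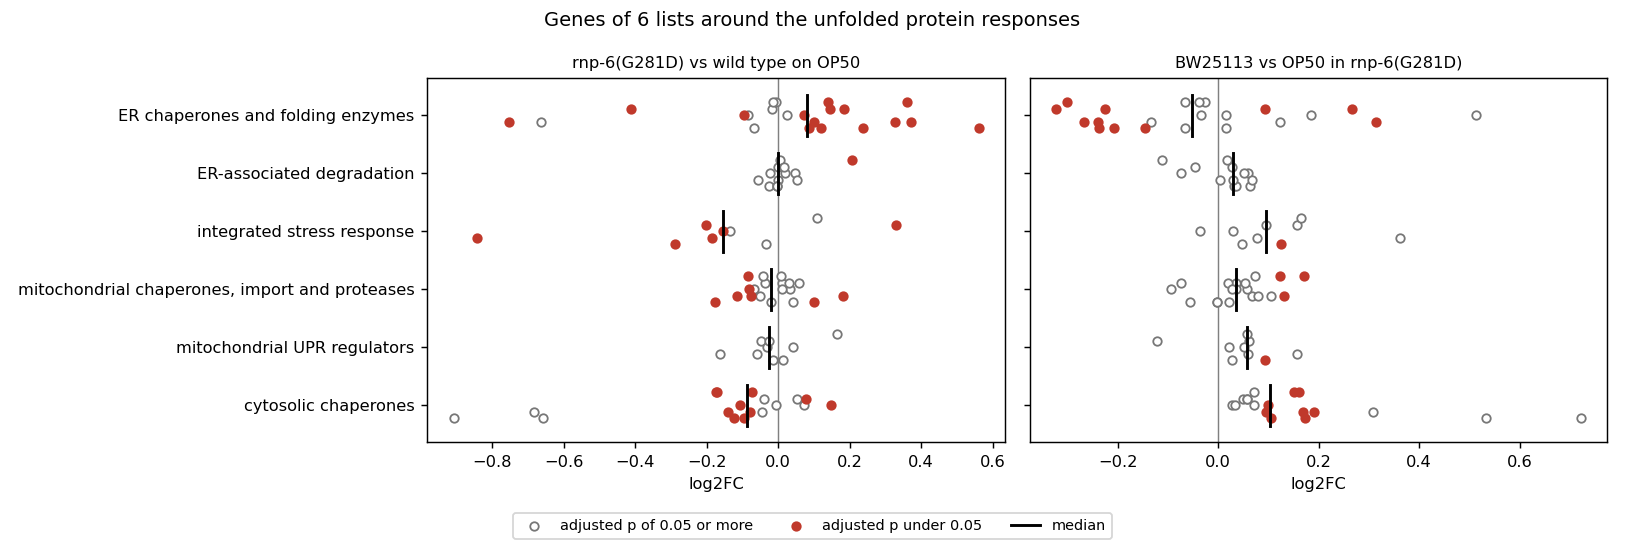
Log2 fold change (x axis) of each tested gene in 6 lists (y axis), for the genotype comparison on OP50 and for the diet comparison in the mutant. Filled points have an adjusted p under 0.05 (limma) and the black bar is the list median. The ER chaperone list has 12 filled points above 0 and 3 below in the first panel, and 3 above and 8 below in the second, and the comparisons share the mutant samples on OP50.

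To describe the pattern of the 4 organelle HSP70 and HSP60 genes over the 16 samples, the log2 values were correlated with those of the other genes with a mean of at least 100. These are descriptions, since all points share the same libraries and groups. The pattern of hsp-3 was most like those of crt-1 (r = 0.944), T28C6.7 (0.903) and ttm-5 (0.887), with hsp-4 at rank 49 of 10251 genes (0.800). The pattern of hsp-4 was most like F40B5.2 (0.954), rhi-1 (0.950) and fbxa-182 (0.949), and atfs-1 was at rank 33 (0.905), above xbp-1 at rank 204 (0.83). The genes nearest to hsp-60 were fubl-2 (0.939), asp-13 (0.938) and F53F1.4 (0.937). The r of hsp-60 with hsp-4 was -0.907 and with atfs-1 -0.849. The genes nearest to hsp-6 were F58G6.9 (0.878), ctsa-4.2 (0.876) and prdx-2 (0.848), whereas hsp-60 was at rank 1296 (0.345) and atfs-1 had an r of -0.270. The second of these, ctsa-4.2, averaged 1337 ± 74.4 and 1843 ± 114 normalized counts on OP50 in wild type and mutant, and 2379 ± 188 and 1926 ± 178 on BW25113 (SD, n = 4). As for hsp-6, wild type on OP50 was the lowest group and wild type on BW25113 the highest.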

How the data were processed

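RNA-seq of whole day 1 adult worms covered 16 samples in 4 groups of 4. Stranded libraries were made after depletion of ribosomal RNA, and the authors estimated transcript abundance with kallisto 0.46.1 against the WormBase reference WBcel235_89. The authors deposited a signal per gene, which is the estimated count divided by a size factor of DESeq2 1.24, and a table of FPKM values. The submitters' processing notes also list Cufflinks 2.2.1, whose role is not given in the sources used here. Neither deposited table holds raw counts. Between 32.9% and 66.6% of values up to 50 were whole multiples of a smallest step within 0.02, so the reads behind the values could not be recovered and count models were not used. The steps gave a rough depth of 32577831 to 48199598 reads per sample.

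The normalized count plus 1 was taken to log2, and the 15799 genes whose mean over the 16 samples reached 10 were tested. Fold changes are on this scale and so are understated for low genes. Comparisons of 2 groups used their 8 samples only and the interaction used all 16, in limma 3.58.1 (lmFit, and eBayes with a trend) in R 4.3.3. All tests were two-sided, with Benjamini-Hochberg adjustment over all genes tested. For the 10 genes, an exact permutation test (70 divisions of 8 samples) was added. The procedure was tested on simulated data. Coordinates came from Ensembl 115, and figures were drawn with matplotlib 3.10.9.

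The 10 genes and the gene lists around them were chosen with earlier results of these data known. Besides the 10 genes, the text names up to 4 genes of each list among those past both thresholds, by size of change. It also names the 3 genes most like each of hsp-6, hsp-60, hsp-3 and hsp-4. Apart from the cell type markers, any other gene is marked as chosen after its values were seen. Of the lists, edem-1, edem-2, edem-3, ppp-1, iftb-1 and abu-3 were matched to no gene of the table.

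The labels do not say whether samples of a group came from separate cultures, so p-values measure only the spread between these samples, which may be technical. The groups share replicate numbers of unstated meaning. Over 10252 genes with means of 100 or more, deviations of same-numbered samples correlated at r = 0.20 to 0.30 between genotypes on OP50 and at r = 0.10 to 0.47 between genotypes on BW25113. Between diets they correlated at r = 0.21 to 0.56 in wild type and at r = -0.06 to 0.27 in rnp-6(G281D). Every pair was over 0.1 except in the last comparison, so the numbers meet the bar for pairs in the other comparisons. All values are from fits without pairing, and a fit with a replicate block was run as an alternative. The other alternatives were pseudocounts of 0.1 and 5, omission of the filter, a filter at 100, equal totals, quantile normalization, the FPKM values (pseudocount 0.1), one fit of all 16 samples, and leaving out each sample. Leaving out both rnp-6(G281D) libraries numbered 1, and the alternatives for gene lists, were added after seeing the data.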

Additional observations from a re-analysis of the deposited data

Results flagged for a closer look

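For 4 of the 10 genes, the diet effects of the 2 genotypes differed at adjusted p under 0.05 by the interaction term over all 16 samples (limma, Benjamini-Hochberg adjusted p). The interaction was -0.37 for hsp-4 (adjusted p = 0.011), with a diet effect of 0.05 in wild type and -0.31 in the mutant. It was -0.28 for hsp-3 (adjusted p = 0.014), with 0.09 and -0.18. It was -0.41 for xbp-1 (adjusted p = 0.049), with -0.11 and -0.52, and -0.22 for hsp-6 (adjusted p = 0.017), with 0.23 and 0.0062. None of the 4 passed without the filter on low values (adjusted p from 0.051 to 0.15). The xbp-1 value was also past the threshold in only 5 of the 16 fits that left out a sample, and not with a pseudocount of 0.1, quantile normalization, equal totals or the FPKM table. Of 40 groups of 4 samples examined, 10 genes in each of 4 groups, none held a sample whose gap to its nearest neighbour exceeded Dixon's critical value, where chance would give about 2.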

How the results depend on the processing

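Of the fold changes of single genes under the alternatives, 863 kept their direction and their side of adjusted p = 0.05, 45 lost the threshold, 9 gained it and 23 changed sign. All reversals were of fold changes near 0. In the diet comparison of rnp-6(G281D), hsp-6 became -0.0136 with quantile normalization, -0.0102 with equal totals and -0.0055 without both rnp-6(G281D) libraries numbered 1, and ranged from -0.0264 to 0.0397 when single samples were left out. There ire-1 became -0.0209 with quantile normalization, -0.0105 with equal totals and -0.0058 in the FPKM table, and ranged from -0.0081 to 0.0226. In the interaction, dnj-10 became -0.0059, -0.00080 and -0.0185 with quantile normalization, with equal totals and without both libraries numbered 1, and ranged from -0.0207 to 0.0256. Leaving out single samples gave atf-6 from -0.0603 to 0.0154 between the genotypes on OP50, and hsp-4 from -0.0072 to 0.0844 on BW25113.

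With adjusted p alone as the call rule, the counts of 0, 0, 1 and 0 past both thresholds became 7 between the genotypes on OP50, 1 between the diets in wild type, 5 between the diets in the mutant and 4 in the interaction. The count at adjusted p alone between the genotypes on BW25113, 0, became 1 with equal totals, 1 in one fit of all samples and 2 with the replicate block. Between the diets in wild type, 1 became 2 with the replicate block. Without the filter, 5 became 2 between the diets in the mutant and 4 became 0 in the interaction. The replicate block changed 1 other call among the 10 genes, since hsp-60 passed in the interaction (adjusted p = 0.0053). Where the block added calls, it also raised the numbers passing over all genes. Leaving out single samples gave 5 to 7 genes between the genotypes on OP50, 0 to 1 on BW25113, 1 in wild type, 4 to 5 in the mutant and 3 to 4 in the interaction. It gave 0 to 1 past both thresholds between the diets in the mutant and 0 in the others.

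For the ER chaperone list, the 12 higher genes on OP50 ranged from 10 to 12 when single samples were left out. The 8 lower between the diets in the mutant ranged from 7 to 9 and became 4 without the filter. For cytosolic chaperones, the 8 lower on OP50 ranged from 6 to 8 and became 3 without the filter and 5 with quantile normalization. The 8 higher between the diets in the mutant ranged from 5 to 9 and became 5 with equal totals and 4 without both libraries numbered 1. The 5 lower integrated stress response genes on OP50 stayed at 5 when single samples were left out.

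Over all genes, quantile normalization changed the 339 higher and 1140 lower genes past both thresholds between the diets in the mutant to 541 and 859, and the 57 and 325 of the interaction to 90 and 270. Read depth per gene is not known from these tables, so no counting intervals are given, and gene-level values do not show splice forms.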
